A study of Mus musculus with 8 samples.

Results

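Transcripts of 9 genes that encode transcription factors of the ureteric epithelium were followed through a comparison of mutant and wild-type mouse kidneys: Pax2, Pax8, Gata3, Gata2, Emx2, Sox8, Sox9, Tfcp2l1 and Grhl2. They were chosen by name, with earlier results of these data known. Every array probe whose RefSeq accession belongs to one of the 9 genes was used. This gave 15 probes for 9 of the 22911 genes with a named probe. The tested kidneys were whole kidneys of embryonic day 14.5 in which a Hoxb7Cre transgene, active in the ureteric bud and in the collecting ducts and ureter lining that grow from it, was used to knock out Mdm4, an inhibitor of p53. Whole wild-type kidneys of the same stage were the comparison. In each of 4 pairs, 1 mutant RNA and 1 wild-type RNA were hybridised together on 2-colour Agilent arrays, once with the mutant RNA in Cy5 and once with it in Cy3, so that 8 arrays gave n = 4 pairs.

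The labels give neither the strain and the Mdm4 alleles nor whether the wild-type kidneys carried the transgene. They do not say how many embryos an RNA came from or whether a pair shared a litter. A limma p-value therefore reflects only how the 4 pairs varied and, through a pooled variance, how all genes tested varied. Some of the variation between pairs may be technical. Most cells of a whole kidney lie outside the Cre-expressing lineage, and in such bulk RNA fewer cells of a type and less RNA per cell cannot be told apart.

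The ureteric bud is the epithelial tube that branches into the embryonic kidney. Its tips respond to the growth factor GDNF through the receptor Ret, and its trunk matures into the collecting duct. Pax2 and Pax8 start the kidney lineage, Gata3 acts below them and maintains Ret, and Emx2 is a homeobox gene that the bud needs to invade and branch. Sox8 and Sox9 act together downstream of Ret signalling at the tips. Tfcp2l1 and Grhl2 belong to 2 related families and serve the later duct, Tfcp2l1 in the choice between principal and intercalated cells and Grhl2 in sealing the epithelium. Several of them are not restricted to the ureteric epithelium: Pax2 and Pax8 also mark nephron progenitors or early nephrons, and Gata2 also marks endothelial and blood-forming cells.

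Proximal promoters are shown for 3 genes on which the results turn: Gata3 and Sox8, whose mean ratios lay farthest below 0, and Tfcp2l1, which had the highest ratio of the 9 in any single pair. The sequences are RefSeq's for GRCm38.p6, the 250 bases before the annotated start, 5′ to 3′ on the gene's strand. Capitals mark matches, on either strand, to one of 7 motifs, the letters of which were AGATAA for GATA factors, ATTGTT for SOX, GTCACG for PAX, AACNNGTT for GRHL, TAATTA for EMX, CCAGNNNNNNCCAG for TFCP2L1 and TATAAA for the TATA box.
Gata3, chr2:9878601-9878850, minus strand: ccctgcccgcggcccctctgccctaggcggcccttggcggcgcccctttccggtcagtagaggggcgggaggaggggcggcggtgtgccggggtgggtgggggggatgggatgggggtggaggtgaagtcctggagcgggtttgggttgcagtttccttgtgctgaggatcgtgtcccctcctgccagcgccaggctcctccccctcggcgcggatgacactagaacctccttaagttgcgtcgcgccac
Sox8, chr17:25570687-25570936, minus strand: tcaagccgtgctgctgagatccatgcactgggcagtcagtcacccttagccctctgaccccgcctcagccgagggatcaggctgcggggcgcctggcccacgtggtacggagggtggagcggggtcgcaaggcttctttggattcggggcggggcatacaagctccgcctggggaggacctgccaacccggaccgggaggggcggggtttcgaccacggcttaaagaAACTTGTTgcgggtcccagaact
Tfcp2l1, chr1:118627695-118627944, plus strand: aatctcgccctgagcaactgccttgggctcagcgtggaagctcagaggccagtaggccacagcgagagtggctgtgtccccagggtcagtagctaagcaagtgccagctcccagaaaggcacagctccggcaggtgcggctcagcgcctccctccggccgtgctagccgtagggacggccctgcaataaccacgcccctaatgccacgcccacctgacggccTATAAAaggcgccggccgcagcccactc
The Sox8 promoter held 1 match, to the GRHL motif, which 3.64% of the 32851 promoters of that length in the table hold. That of Tfcp2l1 held the TATA box, present in 12.4%, and none of the 7 motifs lay in the window of Gata3. The other motifs are held by 9.99% (GATA), 9.42% (SOX), 6.93% (PAX), 4.84% (EMX) and 2.78% (TFCP2L1) of these promoters, and no match overlapped another. The windows are rich in G and C, at 70.0%, 65.6% and 65.2% for Gata3, Sox8 and Tfcp2l1, where the median of all promoters was 52.4%. Across the 7 genes with an entry, 10 promoters were searched, and the one further match was to the GRHL motif in 1 of the 3 Pax2 promoters. The AACNNGTT letters are shared by many sequences, and a match is a description of these letters, not of binding.

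Each array held 62976 spots, 0 of them saturated, and in each channel 60.7% to 70.2% of the non-control spots stood well above background. After background correction and loess normalisation, 16013 genes were tested, and the median standard error of their log2 ratios of mutant over wild type was 0.07. All 9 genes were tested and all 15 probes passed the filter, with each of the 9 probes used for the test above background in 8 of 8 mutant and 8 of 8 wild-type channels. All 10 nephron progenitor and all 10 stromal markers listed for the embryonic kidney were measured. Mdm4 had a log2 ratio of -0.18 ± 0.07 (SE, n = 4; limma adjusted p = 0.471). The position of its probe relative to the deletion is not known here, so this value does not check the labels. Sex-linked transcripts differed within pairs: the log2 ratio of Y-linked Eif2s3y was 3.91, 2.26, -2.02 and 4.09 in pairs 1 to 4, and that of Xist, which is expressed from the inactive X, was -2.71, -0.23, 2.48 and -2.80. Pair 3 thus differed from the other pairs in the direction of sex-linked expression. Means without pair 3 are given for those of the 9 genes that it moved most.

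The comparison asked whether transcripts of these regulators differ in kidneys whose ureteric lineage was targeted. The mean log2 ratio was below 0 for 8 of the 9 genes, where 46.1% of all genes tested were below 0, and only Gata2 was above it. The 9 ratios had a median of -0.17, against 0.01 over all genes. Both contrasts describe genes chosen with earlier results of these data known. Sox8 was lowest relative to its error and Gata3 lowest in size, at 0.755-fold and 0.718-fold of wild type. None of the 9 passed limma's test at an adjusted p of 0.05, and neither did any of the 16013 genes (0 called, 0%). At an unadjusted p under 0.05, 2 of the 9 were lower, Sox8 and Gata3, and 0 were higher, where limma gave 576 lower genes (3.6%) and 1122 higher genes (7.01%) overall. With each array centred on its median instead of loess, these counts were 92 lower and 3780 higher, and after each pair was centred on its tested genes as well, 1336 lower and 969 higher.

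Sox8 encodes an SRY-related factor that acts at the ureteric tips. Its normalised log2 level was 7.07, 7.36, 7.27 and 7.08 in the mutant kidneys of pairs 1 to 4, against 7.71, 7.61, 7.48 and 7.60 in wild-type kidneys. On this tested probe every mutant level lay below every wild-type level. By the tested probes, Sox8 was thus the 1 gene of the 9 whose groups did not overlap, as was the case with the mutant lower for 1.52% of all genes. No gene of the 9 was apart in the other direction, where 3.3% of all genes were. It was also the 1 gene of the 9 that was lower in 4 of 4 pairs, as 7.83% of all genes were, while 0 of the 9 were higher in 4 of 4 pairs (12.1% of all genes) and 0 were lower on 8 of 8 arrays (1.31%). The log2 ratios were -0.64, -0.25, -0.21 and -0.52, with a mean of -0.40 ± 0.09 (SE, n = 4), a 95% interval of -0.62 to -0.19 and a limma adjusted p of 0.360 (unadjusted p = 0.00360). In pairs 1 and 4 both dye orientations gave it, with -0.65 and -0.54 with mutant RNA in Cy5 and -0.64 and -0.50 with it in Cy3. In pairs 2 and 3 the values were -0.46 and -0.43 in Cy5 but -0.04 and 0.02 in Cy3, so that the array without a lower mutant signal belonged to pair 3.

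A second probe of Sox8 gave log2 ratios of -0.26, 0.09, -0.39 and -0.54, with a mean of -0.28 ± 0.11 (SE, n = 4). It disagreed in sign with the first in pair 2 alone. On this second probe the groups overlapped, with log2 levels of 6.89, 7.32, 7.28 and 6.91 in mutant kidneys, against 7.16, 7.23, 7.67 and 7.44 in wild-type kidneys. Both Sox8 probes were dim, and the size of the ratio depended on how background was handled: with Agilent's processed signals the first probe was at -1.05 ± 0.22 (SE, n = 4; limma adjusted p = 0.349). With a smaller offset of 10 in the background correction it was at -0.56. Its direction was negative under all 16 alternatives run. The mean was -0.47 without pair 3 and -0.29 with the Y-linked ratio of each pair as a covariate.

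Sox9, the close relative that acts with Sox8 at the tips and is also made in early nephrons, did not have that pattern. Its log2 levels were 10.60, 10.66, 10.69 and 10.27 in mutant kidneys, against 11.06, 10.62, 10.40 and 10.23 in wild-type kidneys, and the groups overlapped. The log2 ratio was -0.46 in pair 1 but 0.04, 0.30 and 0.04 in pairs 2 to 4 (mean -0.02 ± 0.12, SE, n = 4; limma adjusted p = 0.957). The 95% interval ran from -0.31 to 0.27. Without pair 1 the mean was 0.12, and without pair 3 it was -0.13. The orientations disagreed, with means of -0.37 over the arrays with mutant RNA in Cy5 and 0.33 over those with it in Cy3. A dimmer second probe of Sox9 was closer to 0 on both, at -0.06 and -0.01.
Sox8 lay below Sox9 in log2 ratio in all 4 pairs, by 0.38 ± 0.18 on average (SD, n = 4). An exact sign-flip permutation test gave p = 0.125, the smallest that 4 pairs allow, and 0.188 adjusted over the 3 comparisons of relatives made here.

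Gata3 encodes the zinc finger factor that the ureteric duct needs for its outgrowth. Like Gata2, Emx2 and Tfcp2l1, Gata3 was measured by 1 probe, with no second probe to set beside it. Its log2 levels were 13.63, 14.17, 14.16 and 13.55 in the mutant kidneys of pairs 1 to 4, against 14.55, 14.49, 14.09 and 14.28 in wild-type kidneys. The mutant kidneys of pairs 1 and 4 lay lowest of all 8 RNAs, while in pair 3 the 2 RNAs were close together. The log2 ratios were -0.92, -0.32, 0.07 and -0.74, with a mean of -0.48 ± 0.16 (SE, n = 4), a 95% interval of -0.87 to -0.08 and a limma adjusted p of 0.435 (unadjusted p = 0.0249). The SD of the 4 pair ratios was 0.44. With the mutant RNA labelled in Cy5 all 4 ratios were below 0 (-1.09, -0.73, -0.34 and -1.10). With mutant RNA in Cy3 they were -0.76, 0.09, 0.48 and -0.38, so that pairs 2 and 3 changed sign with the dye. The mean was -0.81 over the Cy5 orientation alone and -0.14 over the Cy3 orientation alone, and -0.20 with the Y-linked ratio of each pair as a covariate. Without pair 3 it was -0.66 (limma adjusted p = 0.193), and it was -0.33 without pair 1 and -0.39 without pair 4.

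Gata2, its relative in endothelial and blood-forming cells as well as in the early urinary tract, was the 1 gene with a mean above 0. Its log2 levels were 11.61, 11.11, 11.03 and 11.06 in mutant kidneys and 11.59, 11.02, 10.89 and 11.11 in wild-type kidneys. Both RNAs of pair 1 were high, and within each pair the genotypes lay within 0.15 of each other. Gata2 had a mean log2 ratio of 0.05 ± 0.06 (SE, n = 4; 95% interval -0.09 to 0.20; limma adjusted p = 0.755). Gata3 was below Gata2 in all 4 pairs, by 0.94, 0.41, 0.08 and 0.69 on the log2 scale (exact sign-flip permutation p = 0.125, the smallest possible; 0.188 adjusted over 3 comparisons).

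**Figure D1:**
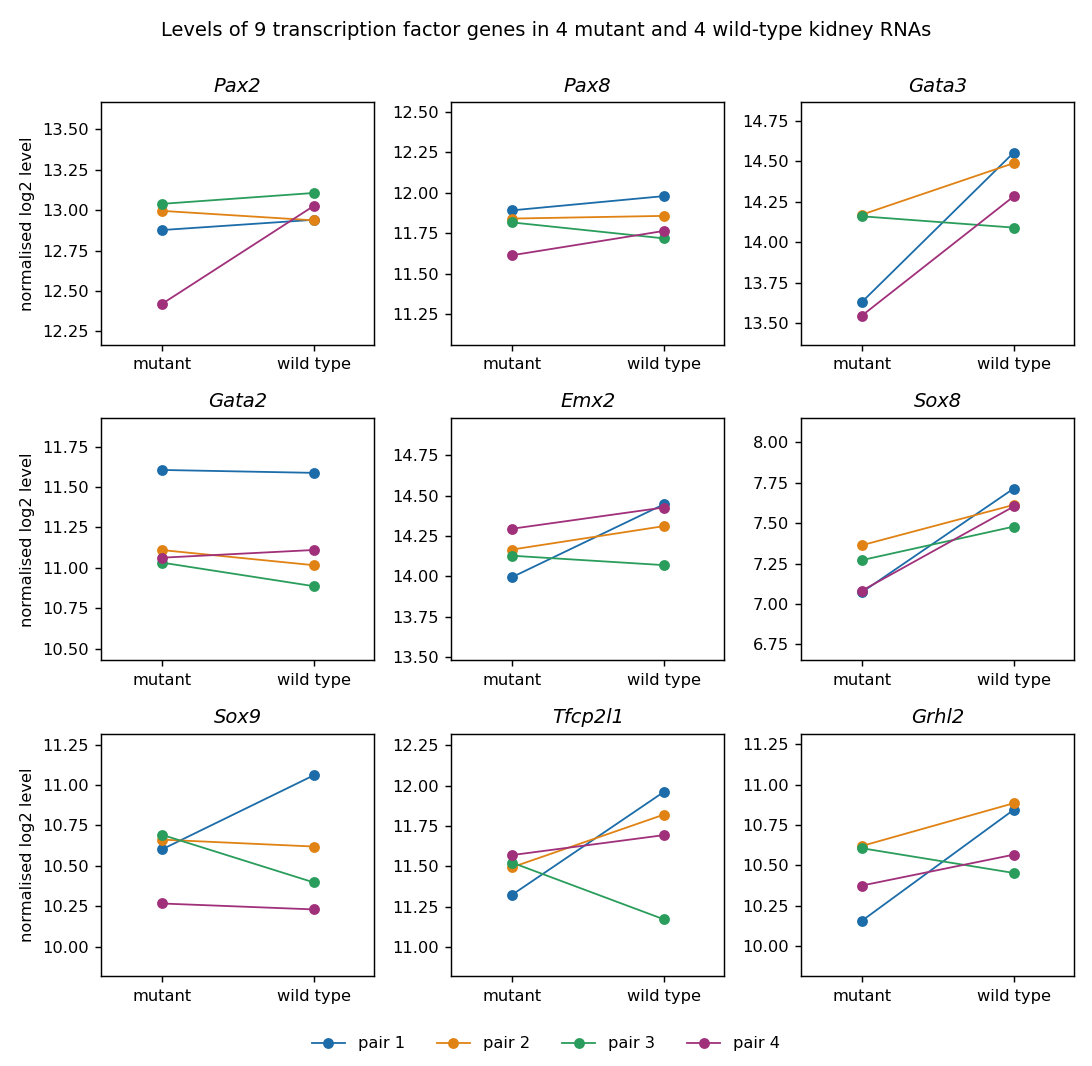
Normalised log2 level (vertical axis, each panel spanning 1.5 log2 units) of each gene's tested probe in 4 mutant and 4 wild-type kidney RNAs, averaged over both dyes; lines join the 2 RNAs of a pair. The mutant and wild-type points of Sox8 do not overlap, those of the other 8 genes do, and the line of pair 3 runs the other way from that of pair 1 for Pax8, Gata3, Emx2, Sox9, Tfcp2l1 and Grhl2.

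Tfcp2l1 and Grhl2 are the genes of the maturing duct, and their 4 pair ratios had SDs of 0.41 and 0.34. These SDs were larger than the mean ratios were in size, as for all members except Sox8 and Gata3. For Tfcp2l1 the log2 levels were 11.32, 11.49, 11.52 and 11.57 in mutant kidneys, against 11.96, 11.82, 11.17 and 11.69 in wild-type kidneys. The mutant levels were close together and the wild-type levels spread, with SDs of 0.11 and 0.34. The log2 ratios were -0.64, -0.33, 0.35 and -0.12 (mean -0.18 ± 0.15, SE, n = 4; limma adjusted p = 0.671). Both dye orientations gave nearly the same means for Tfcp2l1, -0.19 with mutant RNA in Cy5 and -0.17 with it in Cy3, so that its differences between pairs recurred on the second array. Its mean was -0.36 without pair 3 and -0.03 without pair 1, and with the Y-linked ratio as a covariate it was 0.04.

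Grhl2 had log2 levels of 10.16, 10.62, 10.61 and 10.38 in mutant kidneys, against 10.84, 10.89, 10.45 and 10.57 in wild-type kidneys. Its ratios followed those of Tfcp2l1, at -0.69, -0.26, 0.15 and -0.19 (mean -0.25 ± 0.13, SE, n = 4; limma adjusted p = 0.546). The mean was -0.38 without pair 3 and -0.10 without pair 1. It was -0.06 with the Y-linked ratio as a covariate and -0.10 with each array centred on its median. A dim second probe of Grhl2 gave -0.16, 0.01, 0.12 and -0.32, so that pair 3 was highest on both probes but the lowest pair was pair 1 on the first and pair 4 on the second. Of all pairings among the 9 genes, only that of Pax8 and Gata2, both near 0 throughout, had closer ratios: the root mean square difference over the 4 pairs was 0.11 for Tfcp2l1 and Grhl2 and 0.10 for Pax8 and Gata2.

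Emx2, the homeobox gene, had log2 levels of 13.99, 14.17, 14.13 and 14.29 in mutant kidneys, against 14.44, 14.31, 14.07 and 14.43 in wild-type kidneys. The ratio was lowest in pair 1 and above 0 in pair 3, as for Grhl2, with -0.45, -0.14, 0.06 and -0.13. The mean of -0.17 ± 0.09 (SE, n = 4; limma adjusted p = 0.549) was -0.07 without pair 1 and -0.24 without pair 3.

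Pax2 and Pax8, the paired-box genes shared by the ureteric and nephron lineages, differed from these. For Pax2 the log2 levels were 12.88, 13.00, 13.04 and 12.42 in mutant kidneys, against 12.94, 12.94, 13.11 and 13.03 in wild-type kidneys. The mutant kidney of pair 4 alone stood low, and the ratios were -0.06, 0.06, -0.07 and -0.61 (mean -0.17 ± 0.12, SE, n = 4; limma adjusted p = 0.613; -0.02 without pair 4). A second Pax2 probe was lowest in pair 4 too, at -0.44, and the remaining one gave -0.11, -0.15, -0.07 and -0.13. Pax8 was at -0.09, -0.02, 0.10 and -0.15 (mean -0.04 ± 0.06, SE, n = 4; 95% interval -0.19 to 0.11; limma adjusted p = 0.837). All 4 of its ratios were below 0 with mutant RNA in Cy5 (mean -0.35) and all 4 above 0 with it in Cy3 (mean 0.27), while its dim second probe was at -0.10 and -0.17. Without pair 3 the mean of Pax8 was -0.09. Pax2 and Pax8 did not separate, with Pax2 lower in 2 of 4 pairs and an exact sign-flip permutation p of 0.5.

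**Figure D2:**
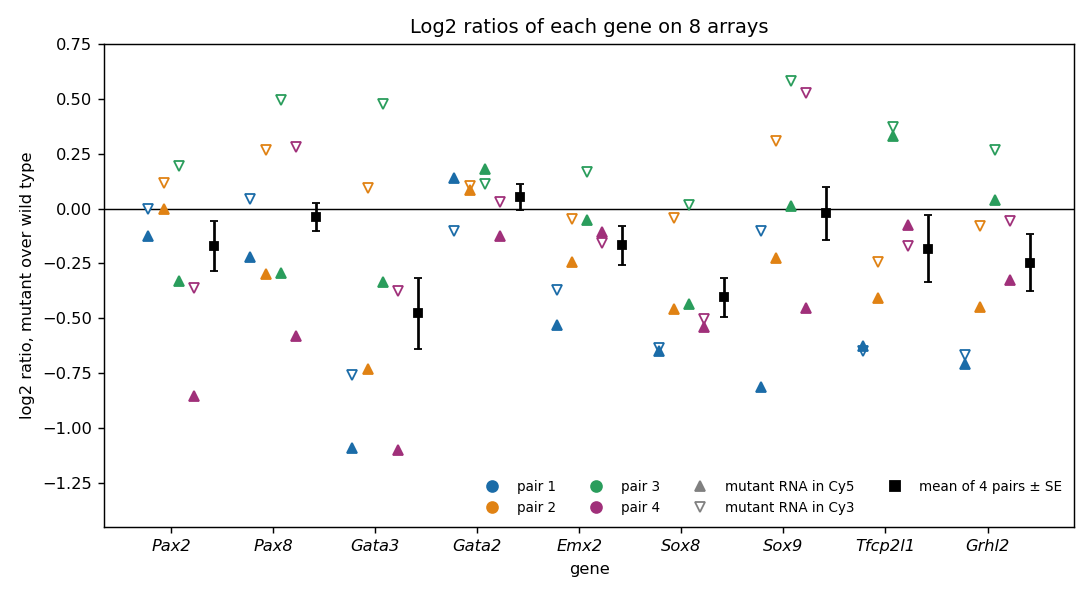
Log2 ratio of mutant over wild type (vertical axis) of each gene on the 8 arrays, with colours for pairs. Filled triangles mark mutant RNA in Cy5 and open triangles mutant RNA in Cy3. Black squares with bars give the mean of 4 pairs and limma's moderated SE. Within each pair the filled triangle lies below the open one for Pax2, Pax8, Gata3, Sox8, Sox9 and Grhl2, whereas for Tfcp2l1 both orientations lie close together and pair 3 is above 0.

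The mutant signal was lower relative to wild type with mutant RNA in Cy5 than in Cy3 in all 4 pairs for 6 of the 9 genes (Pax2, Pax8, Gata3, Sox8, Sox9 and Grhl2). The share of all genes with that order was not counted, so this count is not read as a trait of the 9 genes. The median of the 9 ratios was -0.63, -0.30, -0.05 and -0.45 on the Cy5 arrays of pairs 1 to 4 and -0.37, 0.09, 0.27 and -0.16 on the Cy3 arrays. In a limma fit over all 8 arrays with the pair as a random block, the dye coefficient (Cy5 over Cy3) passed an adjusted p of 0.05 for 3 of the 9 genes and for 30.9% of all genes. They were Pax8 at -0.31 (adjusted p = 0.00126), Gata3 at -0.34 (adjusted p = 0.00726) and Sox9 at -0.35 (adjusted p = 0.00197). Such a term cancels in the mean of the 2 arrays of a pair, so the pair values above do not contain it, but the value from one orientation alone does.

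The pairs had an order that most of the 9 genes shared. The ratio was highest in pair 3 for 8 of the 9 genes, where 30.8% of all genes had their highest ratio in that pair. It was lowest in pair 1 for 6 genes (33.6% of all genes) and in pair 4 for 3 (28% of all genes). The median of the 9 ratios was -0.46, -0.14, 0.10 and -0.15 in pairs 1 to 4, with 8, 6, 2 and 8 of them below 0. Of all genes, 53.5%, 50.8%, 39.3% and 45.4% were below 0 in these pairs, so pair 3 also had the smallest share there. In pair 3 it was the wild-type RNA that stood low: of the 4 wild-type levels, that of pair 3 was lowest for 7 of the 9 genes, where it was lowest for 32.7% of all genes. The mutant level was lowest in pair 1 for 4 genes (29.1% of all genes) and in pair 4 for another 4 (43.6% of all genes), the second of which is close to the share over all genes. A level carries the spot effects that both RNAs of an array share, which the ratio does not. Pair 3 was also the pair with the opposite sex-linked difference, and the part of sex in these values was not tested beyond the covariate fit.

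By a fixed rule, the genes most like a member were named for the 3 members whose ratios were largest in root mean square. Closest to Gata3 over the 4 pairs was Tfap2a, another transcription factor gene of the ureteric epithelium, at -0.89, -0.37, -0.001 and -0.63 and a root mean square difference of 0.07, followed by Bhlhe22 (0.09). Among the closest to Sox8 were Soat1 (0.10) and Wnt4 (0.10). Closest to Tfcp2l1 were Sdr42e1 (0.06), Atp6v0d2 (0.07), which encodes a subunit of the vacuolar proton pump, and Map7 (0.08). With 4 values per gene and 16013 genes, close matches arise for any profile.

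Other genes of the same lineage are given from fixed lists, chosen with earlier results of these data known. The lists share some genes, among them Etv4, Etv5, Lhx1, Ovol2, Foxi1, Jag1 and Cdh1. Counts from different lists are therefore not separate results. Of 15 further transcription factors of the ureteric epithelium, all tested, 14 had a mean below 0 and 8 were lower in 4 of 4 pairs. At an unadjusted p under 0.05, 7 were lower and 0 higher, and 0 passed after adjustment. Their median was -0.25. Ehf, an epithelial Ets factor, was at -0.65 ± 0.17, Etv4, an Ets factor induced by Ret signalling, at -0.57 ± 0.19, Tfap2a at -0.47 ± 0.14 and Lhx1, a LIM homeobox gene needed for ureteric outgrowth, at -0.26 ± 0.08 (SE, n = 4 each; limma adjusted p from 0.398 to 0.426). The 1 gene above 0 was Tfap2b, at 0.13 ± 0.14 and named after its value was seen.

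Among 9 genes of the Ret pathway and the tip, on which Sox8 and Sox9 act, 7 were below 0 and 5 of these had an unadjusted p under 0.05, with a median of -0.31. They included Gfra1, the co-receptor of GDNF, at -0.52 ± 0.12 and Gdnf itself, a product of the nephron progenitors, at -0.24 ± 0.09 (SE, n = 4 each; limma adjusted p from 0.391 to 0.442). Ret itself, named after its value was seen, gave that median, at -0.31 ± 0.36 (SE, n = 4, limma adjusted p = 0.759). Its ratios differed in sign between pairs, at -1.35, 1.09, -0.42 and -0.57 in pairs 1 to 4. The 2 genes above 0, named after their values were seen, were the feedback inhibitors Spry1, at 0.01 ± 0.11, and Dusp6, at 0.02 ± 0.08.

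For Grhl2, 6 genes of epithelial sealing and splicing that are known to depend on it in other epithelia were all below 0, with a median of -0.22 and 2 at an unadjusted p under 0.05. Esrp1, an epithelial splicing regulator, was at -0.34 ± 0.11 and Rab25, a trafficking GTPase, at -0.22 ± 0.09. For Tfcp2l1, 4 of 5 collecting duct genes were measured, 3 of them below 0, with a median of -0.28 and 0 at that threshold. Jag1, a Notch ligand gene, was above 0 at 0.14 ± 0.11 and higher in 3 of 4 pairs, and Aqp2, a water channel gene of principal cells, was at -0.03 ± 0.06. Foxi1, the regulator of intercalated cells, ranged more widely than Tfcp2l1, at -1.60, -0.47, 1.12 and -1.17. Both were above 0 in pair 3 alone, but Foxi1, unlike Tfcp2l1, was lower in pair 4 than in pair 2. Aqp3, another water channel gene of principal cells, was at -1.27, -0.48, 0.47 and -0.89, also above 0 in pair 3 alone. Atp6v1b1 was not well above background in enough channels to be tested.

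Of 17 relatives of the 9 genes in the PAX, GATA, EMX, SOXE, CP2 and grainyhead families, 10 were measured. Their median was 0.04, 9 of them were above 0, and 1 had an unadjusted p under 0.05, Gata6 at 0.34 ± 0.11 (limma adjusted p = 0.424). Pax1, Pax3, Pax4, Pax6, Pax7, Pax9 and Gata4 were not well above background in enough channels of either genotype.

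Markers of the ureteric epithelium that are not transcription factors were set beside the 9 genes. All 9 markers tested had a mean below 0 and 0 passed after adjustment, with a median of -0.38 and 4 at an unadjusted p under 0.05, among them Wnt9b, a signal from the duct to the nephron progenitors, at -0.60 ± 0.15, the keratin gene Krt8 at -0.42 ± 0.12 and the calcium-binding protein gene Calb1 at -0.69 ± 0.22. The 3 markers nearest 0, picked out by their values, were Wnt7b at -0.04, Cdh1 at -0.04 and Krt19 at -0.01. The mean of the 9 markers was -0.65, -0.38, 0.23 and -0.39 in pairs 1 to 4, the same order of signs as the median of the 9 transcription factors. The mean log2 level of these markers ran from 12.12 to 12.38 in mutant kidneys and from 12.14 to 12.89 in wild-type kidneys. The share of ureteric cells in each RNA was not measured, and its part in the ratios of the 9 genes was not tested.

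Markers of other cells that can hold these factors were set beside them. All 10 stromal markers were above 0, with a median of 0.28 and 7 at an unadjusted p under 0.05, and their mean was 0.41, 0.35, 0.15 and 0.40 in pairs 1 to 4. Their mean log2 level ran from 13.16 to 13.74 in mutant kidneys and from 12.86 to 13.32 in wild-type kidneys. The ratio of stroma was thus smallest in pair 3, where the ratios of the 9 genes were highest. Nephron progenitor markers, beside which Pax2 and Pax8 are read, had a median of 0.18 with 6 of 10 above 0 and a mean of -0.14 in pair 3, the 1 pair below 0, with mean log2 levels of 12.87 to 13.06 in mutant and 12.75 to 13.02 in wild-type kidneys. Early nephron markers had a median of -0.08, with 5 of 8 below 0.

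Endothelial markers, beside which Gata2 is read, had a median of 0.06 with 4 of 6 above 0, and mean log2 levels of 10.98 to 11.43 in mutant and 11.08 to 11.37 in wild-type kidneys. Leukocyte and mast cell markers had a median of 0.22 with 6 of 7 above 0, and red blood cell markers one of -0.01 with 1 of 3 above 0. Sympathoadrenal and neuronal markers, whose cells also use Gata2 and Gata3, had a median of 0.14 with 5 of 6 above 0, and Hand2 was below the filter. Markers of glia, which use Sox8, Sox9 and Sox10, had a median of 0.03 over 4 genes, and those of cartilage, which uses Sox9, one of 0.16 over 3 genes, with Acan and Comp below the filter. Gonad markers had a median of 0.02 over 5 genes, and Amh, the defining product of Sox8- and Sox9-expressing Sertoli cells, was above background in 0 of 8 mutant and 0 of 8 wild-type channels. Urothelial markers, of the ureter lining in which the transgene is also active, had a median of 0.03 over 5 genes, with 3 above 0. Their mean was -0.19, -0.22, 0.15 and -0.13 in pairs 1 to 4. Adrenal cortex markers had a median of -0.32 over 2 genes. The part of these cells in the ratios of the 9 genes was not tested.

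**Figure D3:**
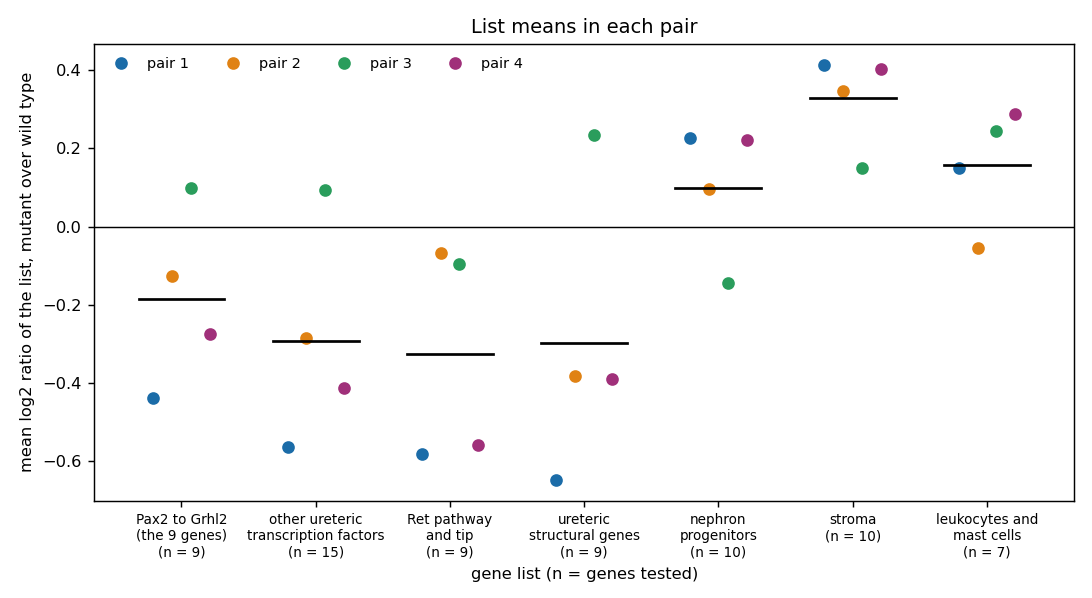
Mean log2 ratio of mutant over wild type (vertical axis) of the 9 genes and of 6 fixed lists in each of the 4 pairs (coloured points), with a black bar for the mean over pairs. The 9 genes, the other ureteric transcription factors and the ureteric structural genes are above 0 in pair 3 alone, while stromal genes are above 0 in all 4 pairs.

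The direction of the 9 means depended on the normalisation for the genes closest to 0. With each array centred on its median instead of loess, the median of all genes was 0.14 and that of the 9 genes was 0.00013, with 4 of them below 0. Centring each pair on its tested genes after that, a step chosen once the values were known, put 8 of the 9 below 0 again. Sox8, Gata3 and Grhl2 kept a mean below 0 under all 16 alternatives run, and none of the 9 passed an adjusted p of 0.05 under any of them. Grhl2 came nearest to 0, at -0.06 with the Y-linked covariate, against -0.14 for Gata3 and -0.29 for Sox8 at their nearest.

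**Figure D4:**
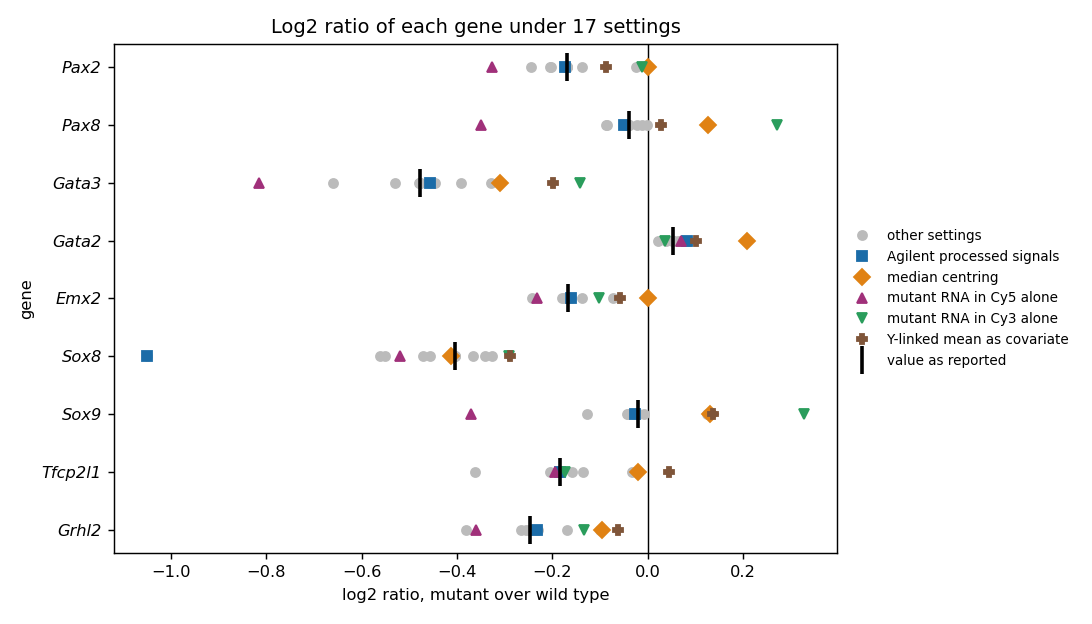
Log2 ratio of mutant over wild type (horizontal axis) of each gene under 17 settings, with a black bar for the value as reported and coloured marks for the settings that moved the values most. Sox8, Gata3 and Grhl2 lie left of 0 under every setting, Pax2, Pax8, Emx2, Sox9 and Tfcp2l1 lie on both sides, and the Sox8 value from Agilent's processed signals stands apart at -1.05.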

How the data were processed

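Spot intensities were deposited by the authors as the scanner software wrote them. The file headers name Agilent Feature Extraction 10.7.3.1, the submitters' processing notes 8.5.1.1. The log10 ratios of Cy5 over Cy3 in the deposited series table equalled those of the scanner files within rounding and were used as an alternative. The deposited background flags, a 0 or 1 per spot and dye, served as a filter. Median spot intensities were background-corrected (normexp, offset 50) and loess-normalised in limma 3.58.1 (R 4.3.3). Control spots and outlier spots (95 to 156 per array, 0 of them in probes of the 9 genes) were left out. Ratios were turned to mutant over wild type, and both arrays of each pair gave 1 mean (n = 4). Probes above background in 6 of the 8 channels of a genotype were kept, and the brightest represented its gene. Probes were named through RefSeq accessions in a GRCm38.p6 table (32994 of 56605). Log2 ratios were tested against 0 with lmFit and eBayes, two-sided, with Benjamini-Hochberg adjustment over 16013 genes. The SEs and 95% intervals of ratios use the moderated variance of eBayes. Levels are channel intensities after Aquantile scaling, as log2. The pair number joins the RNAs by shared arrays. All arrays lay on 1 slide. Of these steps, only the lmFit and eBayes fit was tested on simulated data, in the form of pair ratios. The genes named are the 9 members, up to 4 genes of each fixed list with the smallest p, and the 3 genes most like each of 3 members; a few genes that the rule selects are not reported here. Members and lists were chosen with earlier results of these data known.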

Additional observations from a re-analysis of the deposited data

Results flagged for a closer look

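Of 45 sets of 4 values examined (ratios, mutant levels and wild-type levels of the 15 probes), 1 held a value far from the others by Dixon's criterion, and chance flags about 1 in 20 such sets. It was the level of Gata2 in the mutant kidney of pair 1, at 11.61 on the log2 scale, where the other mutant kidneys lay between 11.03 and 11.11. The wild-type kidney of the same arrays was at 11.59, and the ratio in that pair was 0.02.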

How the results depend on the processing

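The 16 alternatives changed background, offset, normalisation, filter, probe rule, dye orientation, a sex covariate, the source of the ratios, the fit or the pairs used. The count of genes at an adjusted p of 0.05 was 0 in all but 2: 42 with median centring and 39 with all 8 arrays in 1 fit and the pair as a replicate block. At an unadjusted p under 0.05 in limma, 576 genes were lower and 1122 higher as reported, against 1609 and 1684 on the Cy5 orientation, 1371 and 2293 on the Cy3 orientation, 92 and 3780 with median centring (1336 and 969 with the pairs then centred), 429 and 677 with the covariate, 240 and 769 without pair 2 and 343 and 753 without pair 4. At the adjusted threshold none of the 9 genes was called, and the block changed no call of theirs. The number of the 9 below 0 was 4 with median centring and 5 with the Y-linked covariate. Signs turned for Pax2 (0.00013), Emx2 (0.00090), Pax8 (0.13) and Sox9 (0.13) with median centring, for Pax8 (0.27) and Sox9 (0.33) with the Cy3-labelled mutant arrays alone, for Pax8 (0.029), Sox9 (0.14) and Tfcp2l1 (0.045) with the covariate, and for Sox9 with 1 pair left out, where it ran from -0.13 to 0.12. The cause was not tested. The median of the 9 ran from -0.24 to -0.07 with 1 pair left out and was -0.35 and -0.10 on the Cy5 and Cy3 orientations. Without pair 1 or pair 4 the unadjusted p of Gata3 in limma was 0.0914 and 0.0935. The dim probes, those of Sox8 first, are limited by signal over background, and 4 pairs limit all values.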
